A study of Mus musculus with 18 samples.

Results

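The cells described here were a small set of mast cell progenitors in mouse bone marrow, chosen by the transcripts of Gzmb, Cma1, Scin and Cpa3. A cell was taken when it had at least 1 unique molecular identifier (UMI, a tag that counts each captured RNA molecule once) of Cpa3 and at least 1 UMI in 2 or more of Gzmb, Cma1 and Scin, no UMI of the eosinophil gene Epx and fewer than 100 UMIs of the antibody light chain gene Igkc. The rule took 105 of the 8436 cells in the table, or 1.24%. They came from all 6 mice, with 11, 6 and 42 in the 8-week mice and 19, 22 and 5 in the 72-week mice. Because these 6 genes selected the cells, their levels are given as a description and no test against other cells was made on them.

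The study sorted lineage-negative, Kit-positive (LK) bone marrow cells, a fraction that holds stem cells and committed progenitors, from C57BL/6 females aged 8 weeks (mice 1, 3 and 5) or 72 weeks (mice 2, 4 and 6). The labels name no transgene or treatment for either age, and each mouse gave 1 library of 3′ ends made with the 10x Genomics V2 kit. The libraries held 681 to 1919 cells and 3628043 to 17585424 UMIs. The gated cells had a median of 3475 UMIs (range 1872 to 12300) and 1481 genes, below the median of 5985 UMIs in the LK cells outside all gates. Across the libraries 42 cell barcodes occurred in more than 1 mouse, and 1 gated cell carried such a barcode. In libraries of mice 1, 2 and 4 a UMI of Igkc was found in 71.5%, 100% and 71.7% of other LK cells, against 3.9%, 13.3% and 36.8% in mice 3, 5 and 6. These shares were not adjusted for depth, and the median in other LK cells was 8481 UMIs in mouse 4 and 4186 in mouse 6. By the levels scaled to depth that are given below, mouse 2 stood apart. Doublets had no working caller here, since Scrublet marked 0.439% of cells, and 3 gated cells were among the 5% of highest scores in their mouse.

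Mast cells are tissue-resident cells that store proteases, histamine and heparin in granules and release them when IgE bound to the high-affinity receptor on their surface is cross-linked. They arise from progenitors in bone marrow, which are rare, leave the marrow early and enter tissues such as gut and skin with the help of the integrin pair encoded by Itga4 and Itgb7. Basophils share the IgE receptor and the transcription factor Gata2 with mast cells but complete their development in the marrow. Of the genes in the rule, Cpa3 encodes the mast cell carboxypeptidase, Cma1 a chymase, Gzmb the serine protease granzyme B, and Scin the actin-severing protein scinderin.

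Cma1 (chr14:55941451-55944675, minus strand, GRCm38) and Gzmb (chr14:56258838-56262260, minus strand) lie at both ends of 1 protease cluster on chromosome 14, with Mcpt8 (chr14:56082166-56085197) and Ctsg (chr14:56097634-56102574) between them. Of the 15 protein-coding genes that the deposited annotation places from Cma1 to Gzmb, 4 were rows of the count table, and the gated cells had UMIs of all 4: 261 of Cma1, 1788 of Mcpt8, 419 of Ctsg and 1414 of Gzmb. The other 11, Mcpt4 among them, were not analysed here. Cpa3 (chr3:20215620-20242181) and Scin (chr12:40059773-40134228) lie elsewhere, both on the minus strand. The 250 bases before the RefSeq start of each of the 4 genes are shown because transcripts of these genes define the cells and Gata2, which binds GATA words, was found in 96 of them (RefSeq, GRCm38.p6, 5′ to 3′ on the gene's strand). The RefSeq start of Gzmb lies upstream of the start in the deposited annotation, so its window does not adjoin the position given above. Capitals mark the word AGATAA, the word AGATAG, the word TGATAA or the word TGATAG, on either strand.
Cma1, chr14:55944676-55944925: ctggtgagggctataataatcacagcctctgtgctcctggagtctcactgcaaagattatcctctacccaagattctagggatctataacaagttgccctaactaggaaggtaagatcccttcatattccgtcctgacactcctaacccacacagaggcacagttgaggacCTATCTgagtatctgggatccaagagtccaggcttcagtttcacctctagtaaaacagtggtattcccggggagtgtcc
Gzmb, chr14:56262335-56262584: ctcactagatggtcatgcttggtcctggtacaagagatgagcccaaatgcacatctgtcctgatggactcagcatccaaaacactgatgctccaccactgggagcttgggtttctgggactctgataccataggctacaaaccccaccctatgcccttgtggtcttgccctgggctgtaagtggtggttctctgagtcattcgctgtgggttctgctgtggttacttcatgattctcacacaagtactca
Cpa3, chr3:20242182-20242431: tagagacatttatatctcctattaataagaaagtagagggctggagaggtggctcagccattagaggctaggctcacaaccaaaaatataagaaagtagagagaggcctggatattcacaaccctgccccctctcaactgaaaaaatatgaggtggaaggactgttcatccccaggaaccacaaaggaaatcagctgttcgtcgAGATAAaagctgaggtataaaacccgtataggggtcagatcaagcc
Scin, chr12:40134229-40134478: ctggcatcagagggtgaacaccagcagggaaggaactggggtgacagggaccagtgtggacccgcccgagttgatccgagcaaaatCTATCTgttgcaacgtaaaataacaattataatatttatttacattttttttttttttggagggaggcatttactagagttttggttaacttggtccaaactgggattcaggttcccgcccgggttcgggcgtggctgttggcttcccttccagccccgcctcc
The windows of Cma1, Cpa3 and Scin held 1 such word each, beginning 79, 46 and 164 bases before the RefSeq start, and that of Gzmb held 0. The bases between the RefSeq and the deposited start of Gzmb were not searched. Among 32851 RefSeq windows of the same length, 26.5% held at least 1 of the 4 words, so a match in 3 of 4 is a description of letters and not evidence of a bound site.

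Most gated cells were positive for Gzmb and Scin, and a smaller part also carried the chymase transcript. Gzmb UMIs were present in 104 of 105 cells, Scin in 96 and Cma1 in 33. The combination of Gzmb and Scin without Cma1 made up 72 cells, all 3 genes were found in 23, Gzmb and Cma1 without Scin in 9 and Cma1 and Scin without Gzmb in 1. The median number of Gzmb UMIs per gated cell was 17, 4 and 13 in the 8-week mice and 8, 11.5 and 9 in the 72-week mice, and the highest cell held 33, 16 and 48 in the 8-week mice and 33, 64 and 19 in the 72-week mice (UMIs). The median of Cpa3 was 7, 3.5 and 12.5 in the 8-week mice and 9, 4.5 and 4 in the 72-week mice. Cells with 16 or more Gzmb UMIs occurred in every mouse, and both ages overlapped for both genes. Cma1 was concentrated in single cells. Its UMIs summed to 47, 6 and 150 in the 8-week mice and 34, 16 and 8 in the 72-week mice, and without the top cell of each mouse to 10, 2 and 87 in the 8-week mice and 19, 8 and 0 in the 72-week mice.

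**Figure D1:**
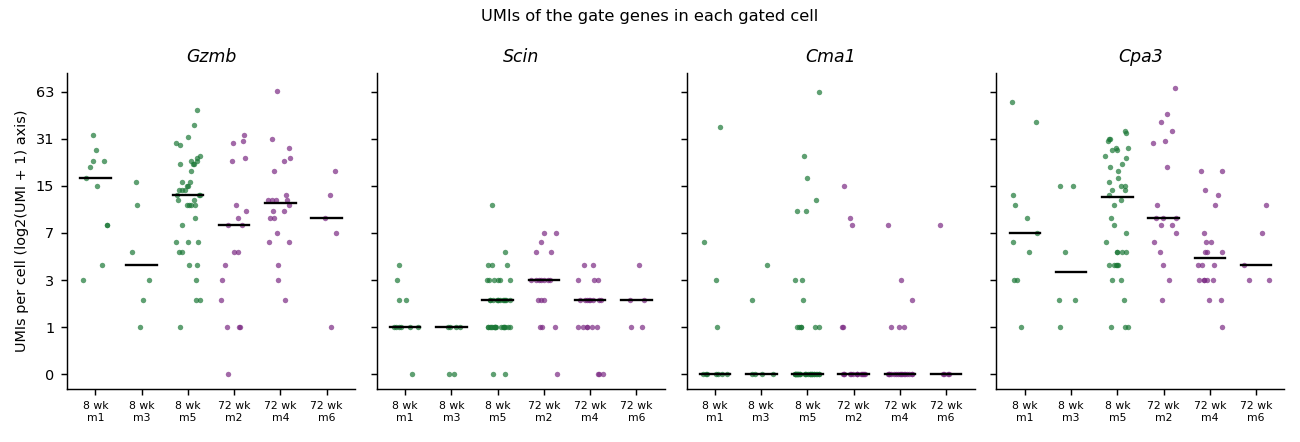
UMIs per gated cell (vertical axis, log2(UMI + 1) scale) of the 4 genes that selected the cells, by mouse, with 8-week mice in green and 72-week mice in purple. Each point is a cell and each bar the median of a mouse, and Cma1 is at 0 in most cells while its highest cell, from mouse 5, holds 63 UMIs.

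In the other LK cells a UMI of the selecting genes was rare except for Cpa3. Gzmb was found in 1.36% of these 6971 cells, Scin in 1.31%, Cma1 in 0.0861% and Cpa3 in 24.1%. After every cell was thinned to 2000 UMIs, which left out 2 gated and 142 other cells, Gzmb was found in 92.2% of gated and 0.835% of other cells and Cma1 in 25.2% and 0.0732%. The edge of the rule was not sharp. The 82 gated cells with exactly 2 of the 3 genes had a median of 9.5 Gzmb UMIs, and 62 of them held 5 or more. Just outside were 180 cells with Cpa3 and exactly 1 of the 3 genes, which was Scin in 105, Gzmb in 70 and Cma1 in 5, and 23 of these held 5 or more Gzmb UMIs. A further 6 cells missed the rule only for lack of Cpa3, and 0 cells were removed by Epx or Igkc alone.

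The cells carrying Cma1 had more Cpa3 than those without it. Pooled over mice, the 33 Cma1-positive cells held Cpa3 at 5449.8 CPM (counts-per-million, a gene's UMIs scaled to the summed UMIs of the cells) against 2063 CPM in the 72 cells without Cma1, at a median depth of 3248 and 3925 UMIs. Id2, which encodes an inhibitor of basic helix-loop-helix factors, was found in 26 of 33 and 37 of 72 of these cells. Cyp11a1, the enzyme that begins steroid synthesis from cholesterol, was found in 23 and 21, and Ndst2, a heparin-modifying sulfotransferase, in 10 and 7. In the other direction Trbc1, a T cell receptor constant segment, was found in 3 and 18 cells, and Ms4a2, the beta chain of the IgE receptor, in 15 and 45. These genes were picked after their values were seen, and since the rule used Cma1, the split is a description.

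Transcripts of Mcpt8, the serine protease that marks basophils, occurred in 48 gated cells, 35 of which had no UMI of Prss34, the second basophil protease. In 3 cells, from mice 1 and 2, Prss34 ran from 374 to 937 UMIs and Mcpt8 from 175 to 687, with 1 to 4 Gzmb UMIs, no Cma1 and no Id2, so these cells had the basophil pattern and went against the label. They supplied most of the Prss34 UMIs, and the edgeR comparisons with other LK cells, with the wider basophil-like gate and between ages, and both shares, were also computed without them. Over all 105 gated cells there were 1788 Mcpt8 and 1791 Prss34 UMIs, a ratio of 0.998. In the remaining 102 cells there were 588 Mcpt8 and 24 Prss34 UMIs, a ratio of 24.5, computed after cells were left out for high Prss34. In basophil-like cells with 10 or more Mcpt8 UMIs the ratio was 0.606, ranging from 0.509 to 1.14 over the mice. In the cells outside both gates it ran from 1.18 to 14.8, and 1570 of the 1636 cells with Mcpt8 there had no Prss34. The basophil-like gate took most cells with both genes, so this ratio and share were largely set by the gates and are no comparison. Mcpt8 without Prss34 did occur outside the gated cells. At 5 or more Mcpt8 UMIs and no Prss34 there were 18 gated cells and 99 cells outside both gates. The 17 gated cells with 10 or more Mcpt8 UMIs and under 100 of Prss34 had a median of 20 Cpa3 and 15 Gzmb UMIs, and Cma1 was found in 11 of them.

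**Figure D2:**
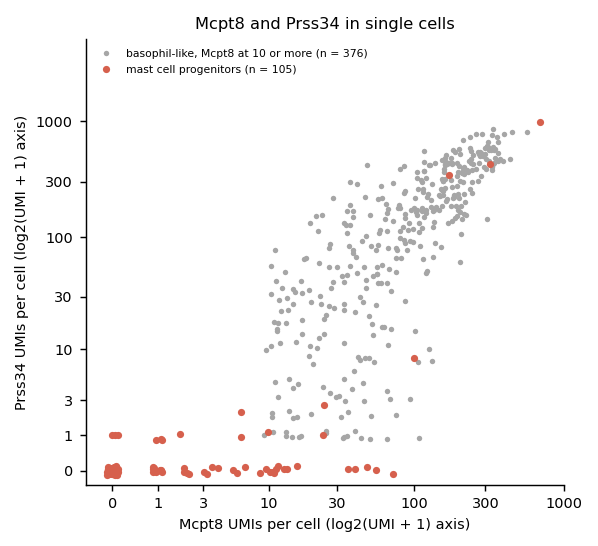
Mcpt8 (horizontal) and Prss34 (vertical) UMIs per cell on log2(UMI + 1) scales, slightly scattered, for the 105 gated cells in red and the 376 basophil-like cells with 10 or more Mcpt8 UMIs in grey, the latter required by their own gate to have at least 1 Prss34 UMI. Gated cells lie along the bottom, with 3 cells among the grey points at the top right.

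The share of these cells among LK cells varied more between mice than between ages. It was 0.663, 0.391 and 4.39 in the 8-week mice and 1.13, 1.15 and 0.734 in the 72-week mice, in percent of the cells of each mouse. Mouse 5 stood apart at 4.39% (exact Clopper-Pearson 95% interval 3.18 to 5.89%, counting error only), above the interval of every other mouse, of which the highest bound was 1.75%. The mean was 1.82 ± 2.24% at 8 weeks (SD, n = 3) and 1.00 ± 0.232% at 72 weeks (n = 3), and a 2-sided exact permutation test over the mice gave p = 1, where 3 against 3 mice cannot give less than 0.1. Without mouse 5 the 8-week mean was 0.527%, below the 72-week mean, so the direction rested on 1 library. No age difference in the share could be called in either direction.

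**Figure D3:**
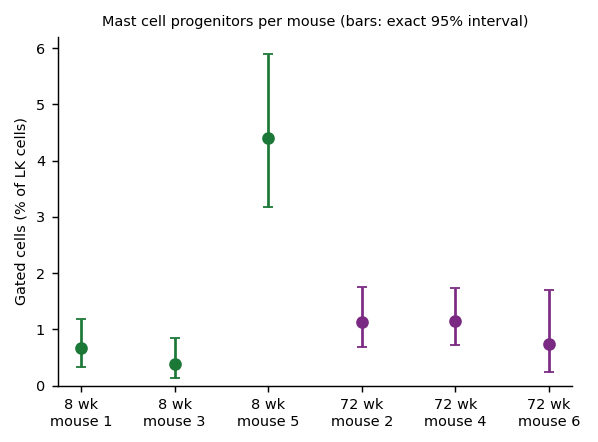
Gated cells in percent of the LK cells of each mouse (points), with the exact 95% binomial interval (bars), green for 8 weeks and purple for 72 weeks. Mouse 5 lies at 4.39% and the other 5 mice lie between 0.391 and 1.15%.

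For comparison within the IgE receptor lineages, basophil-like cells were those with at least 1 UMI each of Mcpt8 and Prss34, without Epx, with Igkc under 100 and outside the mast gate. There were 514, 33 and 105 in the 8-week mice and 439, 58 and 23 in the 72-week mice, and in mice 1 and 2 this gate took 31% and 26.0% of LK cells, many with 1 or few UMIs of either gene. With Mcpt8 at 10 or more UMIs the numbers fell to 172, 19 and 49 in the 8-week mice and 95, 30 and 11 in the 72-week mice. Mast cell progenitors made up 2.1, 15.4 and 28.6 in the 8-week mice and 4.15, 27.5 and 17.9 in the 72-week mice, in percent of mast and basophil-like cells together, or 6.01, 24 and 46.2% at 8 weeks and 16.7, 42.3 and 31.2% at 72 weeks with the stricter gate. The low values of mice 1 and 2 followed their large basophil-like gates. The means were 15.4 ± 13.2% and 16.5 ± 11.7% at 8 and 72 weeks (SD, n = 3 each, 2-sided exact permutation p = 0.8), and leaving out mouse 1 or mouse 4 turned the difference from 1.15 to -5.48 or -4.35 percentage points.

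Against the other LK cells of the same mice, the gated cells had higher levels of most mast cell and basophil markers tested, the 3 IgE receptor chains among them, and lower levels of most neutrophil, monocyte and cell cycle genes tested. UMIs were summed per mouse and class and compared by edgeR's quasi-likelihood test with the mouse as a block, in mice 1, 2, 4 and 5, since mice 3 and 6 had fewer than 10 gated cells. Of 9827 genes tested, 522 were higher (5.31%) and 1140 lower (11.6%) in gated cells at a Benjamini-Hochberg adjusted p below 0.05, together 16.9%. Leaving out mouse 4 or mouse 5 gave 1016 or 1080 calls, and leaving out the 3 cells of high Prss34 gave 1619. The split between higher and lower moved with the settings. With RLE in place of TMM factors, log2 differences rose by a median of 0.18 and 657 genes were higher and 757 lower, and with DESeq2, which changes the test as well as the scaling, 529 were higher and 413 lower. The median log2 difference of all tested genes was -0.26. The 9 genes used by any gate were left out of the test, and the others were counted in the same cells, so a call describes the gated cells and is not evidence from a second set of cells. The filter for low counts took the sums of both classes, so genes scarce in the compared cells could enter through the gated cells. Kcnc1 and Trbc1, at means of 1.02 and 2.27 CPM in other LK cells, are examples. Such genes can hardly be called lower, which tilts list counts and the largest increases upward. Levels are CPM of each mouse's summed cells of a class, and log2 differences are given ± SE. This SE was derived from the F statistic of the edgeR test, in which dispersion is shared across genes. Neither the SE nor the adjusted p is a measure of a gene's own spread between mice, for which the levels per mouse are given.

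**Figure D4:**
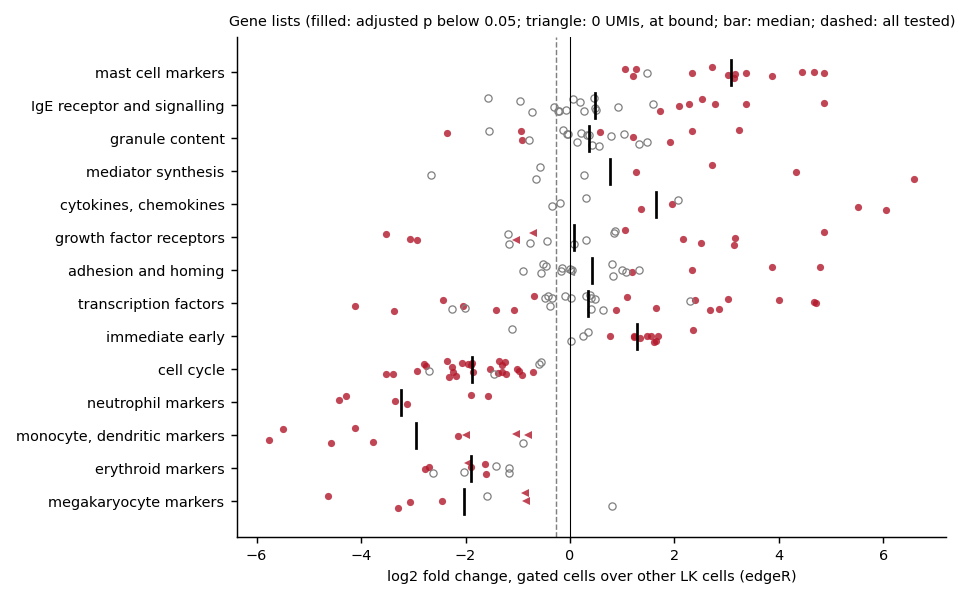
Log2 difference between gated and other LK cells (horizontal axis, edgeR) for the tested genes of each list, with called genes filled and genes at 0 UMIs in the gated cells drawn as triangles at the bound that 3 UMIs over the 4 mice allow. Bars are list medians, with genes at 0 UMIs at that bound, and the dashed line is the median of all tested genes (-0.26), with mast cell markers on the right and the cell cycle, neutrophil, monocyte, erythroid and megakaryocyte lists on the left.

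Most mast cell markers outside the rule were higher than in other LK cells, and so were most basophil markers. Of the 30 genes in the mast cell list, 20 were in the table and 14 outside the rule were tested, of which 13 rose, 0 fell and 1 did not pass, with a median log2 difference of 3.08. Among all tested genes 5.31% were higher. Of 12 basophil markers tested, 9 rose, 0 fell and 3 did not pass, at a median of 3.12, so this comparison does not tell the mast cell label from the basophil one. Against the basophil-like cells of the wider gate, 12 mast cell markers were tested and 8 rose, 0 fell and 4 did not pass (median 1.7), where 11.2% of all tested genes were higher and 10.4% lower. Against the stricter gate 7 rose, 4 fell and 1 did not pass of 12 (median 0.77), where 9.56% and 9.1% were. The summed level of the mast cell list, genes of the rule included, was 7716 to 16975 CPM in gated and 7172 to 12709 CPM in strictly gated basophil-like cells, and these ranges overlapped. Gata2, the zinc finger factor needed for mast cells and basophils, was at 562, 502 and 770.0 CPM in the 8-week mice and 726, 740.1 and 528 CPM in the 72-week mice, and at 57.1 to 92.4 CPM in other LK cells. The groups did not overlap and the difference was 3.02 ± 0.17 (edgeR, adjusted p = 1.6e-70). Mitf, the factor of mature mast cells and pigment cells, had too few UMIs to be tested and was found in 17 gated cells, or 16.2%, against 1.0% of other cells. Slc45a3, a sugar transporter of the basophil and mast cell lineages, differed by 4.45 ± 0.36 (edgeR, adjusted p = 8.7e-32). The tryptases Tpsb2 and Tpsab1 and the chymase Mcpt4, which define mature connective tissue mast cells, were not analysed here.

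Among 36 transcription factors, 32 were tested, of which 10 rose, 7 fell and 15 did not pass, at a median of 0.34. For this list and the stem and progenitor list below, the background among all tested genes was 5.31% higher and 11.6% lower. Id2 was at 187, 94.1 and 662 CPM in the 8-week mice and 358, 412 and 762 CPM in the 72-week mice, against 3.04 to 40.6 CPM in other LK cells, without overlap. The 2 mice with the lowest Id2 in gated cells were 1 and 3. Lmo4, an adaptor of LIM domain proteins, was at 1821 to 4457 CPM in gated and 89.4 to 155 CPM in other cells, a difference of 4.01 ± 0.15 (edgeR, adjusted p = 1.1e-156). Hes1, the Notch target repressor, was at 140.5, 62.7 and 162 CPM in the 8-week mice and 86.7, 84.6 and 0 CPM in the 72-week mice, with a difference of 4.67 ± 0.42 (edgeR, adjusted p = 1e-26). It was not found in the 5 cells of mouse 6. Among those that fell were Irf8, a factor of monocytes and dendritic cells (-4.12 ± 0.45), Cebpe, a factor of granulocyte maturation (-3.37 ± 0.58), Lmo2, a factor of stem cells and erythroid cells (-2.42 ± 0.23), and Myc (-2.05 ± 0.40). Of 12 stem and progenitor genes tested, 2 rose, 4 fell and 6 did not pass, at a median of -1.15, or -0.81 with the gene at 0 UMIs set to the bound of 3 UMIs. Sox4 and Meis1 were higher, with 1.32 ± 0.17 and 0.88 ± 0.29, while Cd34 and Adgrg1 were lower, with -0.60 ± 0.20 and -0.81 ± 0.23. Meis1 was higher in 3 of 4 tested mice, but mouse 1 had 0 CPM in gated and 33.4 CPM in other cells. Cd34 was lower in 3 of 4 tested mice, but mouse 5 had 253 CPM in gated and 241 CPM in other cells. The others that fell were Hlf, a factor of stem cells, with 1 UMI in all gated cells and found in 9.65% of other cells, and Flt3, a receptor of early progenitors, with 3 UMIs and found in 14.4%. Sox4 ranged widely over the gated cells of the 6 mice, with 234, 1098 and 782 CPM in the 8-week mice and 249, 1036 and 3049 CPM in the 72-week mice.

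Transcripts of all 3 chains of the IgE receptor were found in the pooled gated cells, but not in each cell. Of the 102 gated cells without high Prss34, 48 had a UMI of Fcer1a and 57 a UMI of Ms4a2. Fcer1a, the chain that binds IgE, was at 632, 157 and 96.2 CPM in the 8-week mice and 1626, 624 and 586 CPM in the 72-week mice, against 6.09 to 30.3 CPM in other LK cells. The spread was wide, mouse 5 lying lowest of the 6. The 3 cells of high Prss34, in mice 1 and 2, held 4 to 58 Fcer1a UMIs, or 3382 CPM pooled, against 423 CPM in the other 102. Ms4a2, the signal-amplifying chain, was at 421, 62.7 and 253 CPM in the 8-week mice and 834, 381 and 176 CPM in the 72-week mice, and Fcer1g, the common gamma chain, at 1592, 1129 and 1636 CPM in the 8-week mice and 1463, 1459 and 1173 CPM in the 72-week mice. The log2 differences were 4.85 ± 0.21, 3.37 ± 0.21 and 2.53 ± 0.14 (edgeR, adjusted p = 8.9e-113, 1.9e-57 and 1.5e-65). These SE and p do not measure the wide spread of Fcer1a over the mice. Of the 22 receptor and signalling genes tested, 7 rose, 0 fell and 15 did not pass, and the list median was 0.47. The background among all tested genes was 5.31% higher and 11.6% lower. Beside the chains, the adaptor Lat2 rose by 2.78 ± 0.18, while the kinases Lyn and Syk did not pass, at 0.51 and -0.73.

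Most granule genes did not pass the test. Of 23 granule content genes tested, 5 rose, 3 fell and 15 did not pass, at a median of 0.37. Among all tested genes 5.31% were higher and 11.6% lower, so the number that fell was near the background. Srgn, the proteoglycan core that packs proteases, was at 3284 to 4662 CPM in gated and 1149 to 1593 CPM in other cells (1.20 ± 0.14). Cd63, a granule membrane protein, rose by 1.92 ± 0.14, Stx3, a membrane fusion protein, by 3.23 ± 0.32 and the lysosomal protease Ctsd by 0.57 ± 0.18. Lamp1 and Hexa, both lysosomal, and Rab27a fell, with -0.92 ± 0.24, -0.94 ± 0.26 and -2.35 ± 0.85. Among the granule proteases outside the rule, the neutrophil enzymes Elane, Prtn3 and Ctsg were lower, with differences of -4.42 ± 0.19, -3.35 ± 0.19 and -1.57 ± 0.16. Ctsg was not lower in mouse 2, at 2915 CPM in gated and 2902 CPM in other cells. The 3 cells of high Prss34 held Ctsg at 7966 CPM pooled, against 495 CPM in the other 102.

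Of 8 mediator synthesis genes tested, 4 rose, 0 fell and 4 did not pass. For this list and the cytokine list below, the background among all tested genes was 5.31% higher and 11.6% lower. Cyp11a1 had the largest called difference of the genes named by size, 6.59 ± 0.36 (edgeR, adjusted p = 5e-70), at 211, 31.4 and 271 CPM in the 8-week mice and 314, 137 and 235 CPM in the 72-week mice, against 0.717 to 4.26 CPM in other cells. Alox5, which begins leukotriene synthesis, rose by 4.33 ± 0.34, and Slc18a2, the transporter that loads histamine into granules, by 2.72 ± 0.35. Hdc, the enzyme that makes histamine, rose by 1.26 ± 0.24 but was at 281, 62.7 and 156 CPM in the 8-week mice and 260.1, 116 and 0 CPM in the 72-week mice, so it was not found in the gated cells of mouse 6. Of 8 cytokine and chemokine genes tested, 4 rose, 0 fell and 4 did not pass. The 4 that rose were Il4, Il6, Osm and Ccl4, of which Il4 and Il6 are signature cytokines of mast cells and basophils. Il4 was found in 15 gated cells and Il6 in 20, against 0.287% and 0.473% of other cells, and the differences were 6.04 ± 0.70 and 5.51 ± 0.64 (edgeR, adjusted p = 1.2e-15 and 5.4e-16). Both rest on few UMIs, 15 and 22 in all. As both were scarce in other LK cells, they could enter the test through the gated cells, so the count of genes that rose leans upward.

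Homing and growth factor receptor genes gave a mixed picture. Of 18 adhesion and homing genes tested, 4 rose, 0 fell and 14 did not pass. The 4 that rose were Itgb7, Itga4, Gpr183 and Selplg. For the lists in this paragraph, the background among all tested genes was 5.31% higher and 11.6% lower. Itgb7, the integrin beta 7 chain, was at 445, 94.1 and 355 CPM in the 8-week mice and 238, 433 and 528 CPM in the 72-week mice, against 10.1 to 34.1 CPM in other cells, a difference of 3.88 ± 0.23 (edgeR, adjusted p = 6.9e-61). Its partner Itga4 was at 258, 219.6 and 343 CPM in the 8-week mice and 163, 349 and 528 CPM in the 72-week mice, against 33 to 55.5 CPM (2.33 ± 0.22, adjusted p = 9.7e-23 by edgeR). Neither overlapped between the classes. Gpr183, an oxysterol receptor that guides cell position, differed by 4.78 ± 0.47, and Selplg, the ligand of P-selectin, by 1.19 ± 0.18. Of 19 growth factor receptor genes, 6 rose, 5 fell and 8 did not pass. Kit, the stem cell factor receptor by which the sort was made, was at 258, 157 and 126 CPM in the 8-week mice and 86.7, 84.6 and 235 CPM in the 72-week mice, against 33.8 to 63.1 CPM in other cells (1.06 ± 0.28, adjusted p = 0.0023 by edgeR). Il1rl1, the receptor of interleukin 33, rose by 3.16 ± 0.50, Il2rg, the common gamma chain of cytokine receptors, by 3.14 ± 0.24 and Csf2rb, the common beta chain, by 2.51 ± 0.37. In the gelsolin family, to which Scin belongs, Gsn, Flii and Capg were higher, with 2.63 ± 0.40, 1.17 ± 0.39 and 0.67 ± 0.25, the 3 called of 5 tested.

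Cell division genes were low. Of 30 cell cycle genes tested, 0 rose, 26 fell and 4 did not pass, with a median of -1.87. For this list and the immediate early list below, the background among all tested genes was 5.31% higher and 11.6% lower. The summed level of the cell cycle genes was 1876 to 4683 CPM in gated and 5636 to 6966 CPM in other cells over the 6 mice, without overlap. Birc5, which encodes the mitotic protein survivin, was found in 5 gated cells with 7 UMIs, against 40.1% of other cells (-3.38 ± 0.39, adjusted p = 6e-16 by edgeR). Ccnb1, Cdc20 and Ccnb2, which act in mitosis, differed by -3.52 ± 0.70, -2.94 ± 0.49 and -2.80 ± 0.45. At 2000 UMIs per cell, Mki67, the common proliferation marker, was found in 2.91% of gated, 8.51% of strictly gated basophil-like and 9.53% of other cells, compared with 4.76%, 23.9% and 24.9% before thinning. Immediate early genes went the other way: of 14 tested, 10 rose, 0 fell and 4 did not pass, at a median of 1.29, with the largest in Ier3 (2.36 ± 0.22), Junb (1.69 ± 0.17), Egr1 (1.65 ± 0.27) and Fosb (1.60 ± 0.32). These genes, which also respond to cell handling, differed between libraries in both classes. Junb in gated cells was at 562, 596 and 632 CPM in the 8-week mice and 119, 1300.4 and 352 CPM in the 72-week mice, and in other cells at 78.9, 196 and 182 CPM in the 8-week mice and 52.4, 339 and 105 CPM in the 72-week mice, lowest in mouse 2 in each class and highest in mouse 4, and the part of handling was not tested.

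Neutrophil and monocyte markers were mostly lower, while other lineages gave mixed counts. The summed level of the basophil list, in which 9 of 12 rose, was 7083 to 38438 CPM in gated, 16359.9 to 68092 CPM in strictly gated basophil-like and 935 to 1372 CPM in other LK cells, Mcpt8 and Prss34 included. Among gated cells it was highest in mice 1 and 2, which held the 3 cells of high Prss34. Of 3 eosinophil list genes tested, Ltb4r1, a leukotriene B4 receptor, rose (2.55 ± 0.24, adjusted p = 1e-23 by edgeR), Cebpe fell and 1 did not pass. The list summed to 117 to 351 CPM in gated and 67.5 to 205 CPM in other cells, and 5 of its 11 genes in the table were at 0 in gated cells, Epx by the rule and Ear1, Ear2, Ear6 and Il5ra besides. Neutrophil and granulocyte progenitor genes fell in 6 of 6 tested, with Elane, neutrophil elastase, at 117, 62.7 and 186 CPM in the 8-week mice and 390.1, 84.6 and 176 CPM in the 72-week mice, against 1391 to 5278 CPM in other cells. The highest of these values was that of mouse 2. Mpo, myeloperoxidase, differed by -3.13 ± 0.17 and S100a8, a neutrophil calcium-binding protein, by -4.30 ± 0.51. Monocyte and dendritic cell genes fell in 9 of 10, erythroid genes in 6 of 11 and megakaryocyte genes in 6 of 8 tested. The background among all tested genes was 11.6% lower. Among the erythroid genes Aqp1, a water channel, Car1 and Rhd, a blood group protein, were lower, with -2.78 ± 0.46, -1.63 ± 0.19 and -1.90 ± 0.52. The median log2 differences of these lists, in the order given, were -3.24, -5.04, -1.90 and -3.18. With genes at 0 UMIs set to the bound of 3 UMIs, the median was -2.96 for monocyte and dendritic cell genes and -2.02 for megakaryocyte genes. Cd74 had 2 UMIs in the gated cells of the 4 mice, a level 46.7 times below that of other cells (95% counting interval 12.9 to 386), and H2-Aa had 1 UMI, 39.7 times below (interval 7.12 to 1569). In other cells Cd74, the invariant chain of class II presentation, was at 338, 8.77 and 1.45 CPM in the 8-week mice and 829.5, 28.8 and 9.34 CPM in the 72-week mice, highest in mice 1 and 2. Pf4, platelet factor 4, differed by -4.63 ± 0.34. The defining T and NK cell genes Cd3d, Cd3g, Trac, Ncr1 and Eomes and the B cell genes Cd79a, Ms4a1 and Ebf1 had 0 UMIs in the gated cells, which allows up to 3 UMIs per gene among them all. Trbc1 was nonetheless found in 21 gated cells, at 93.7, 0 and 78.2 CPM in the 8-week mice and 65.0, 137 and 58.6 CPM in the 72-week mice, and at 0.584 to 2.58 CPM in other cells (5.13 ± 0.46, adjusted p = 2.2e-26 by edgeR). Of the 14 T and NK markers in the table, 12 were at 0, and their summed level was 0 to 148 CPM in gated and 5.55 to 26.7 CPM in other cells. In the gated cells nearly all of it was Trbc1. B and plasma cell markers lay at 46.8 to 910.3 and 98.2 to 835 CPM, highest in mouse 2 in both classes, and of 3 tested 0 rose, 0 fell and 3 did not pass. Of 12 mitochondrially encoded genes, 0 rose, 5 fell and 7 did not pass, where 11.6% of all tested genes were lower. Their median log2 difference was -0.62, against -0.26 for all tested genes. RLE factors raised log2 differences by a median of 0.18, so these small differences depend in part on the scaling.

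The remaining genes named for their size were Rab19, a trafficking GTPase (5.85 ± 0.42), Atp8b5, a lipid flippase (5.71 ± 0.42), Kcnc1, a voltage-gated potassium channel (5.52 ± 0.55), Tmprss7, a membrane serine protease (5.44 ± 0.54), and AC153891.1 (4.61 ± 0.43). Kcnc1 was at 70.2, 31.4 and 60.2 CPM in the 8-week mice and 43.3, 74.0 and 117 CPM in the 72-week mice, and at 0.133 to 1.45 CPM in other cells. The gated cells of all 6 mice carried it, and the classes did not overlap. On the lower side were also H2-Eb1, a class II chain, Bex6, Fkbp11, a folding enzyme of secretory cells, Map4k1, a kinase of blood cells, Ly6c2, a monocyte surface protein, and BC035044, with -4.58 ± 0.84, -5.00 ± 0.74, -4.93 ± 0.76, -4.18 ± 0.62, -4.00 ± 0.33 and -3.98 ± 0.46. Of the 40 genes that the study listed for its smaller mast cell cluster, a list made on these samples and so not independent, 36 were tested and 35 rose, 1 fell and 0 did not pass. Of the 40 listed for its larger mast cell cluster, 35 were tested and 30 rose, 0 fell and 5 did not pass. The background among all tested genes was 5.31% higher and 11.6% lower. Against strictly gated basophil-like cells, 30 genes of the smaller cluster's list were tested and 24 rose, 5 fell and 1 did not pass, while of 37 of the larger cluster's list 6 rose, 17 fell and 14 did not pass. In that comparison 9.56% of all tested genes were higher and 9.1% lower. The larger cluster's list summed to 28043 to 70959 CPM in gated and 42657 to 101560 CPM in strictly gated basophil-like cells.

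Basophil-like cells had less Id2, Itgb7 and Itga4 than the gated cells, while the direction for the IgE receptor chains Fcer1a and Ms4a2 depended on how basophil-like cells were chosen. In the same 4 mice, 449 of 4014 genes were higher (11.2%) and 416 lower (10.4%) in gated cells, together 21.5%, by the same test. With the stricter basophil-like gate, 250 of 2616 genes were higher (9.56%) and 238 lower (9.1%), together 18.7%. Of the 707 first calls tested in both, 404 were called in both and 11 had the opposite sign. The wider gate included cells rich in Elane, at 663 to 5321 CPM against 469.8 to 944 CPM in the stricter one, so both differences are given in that order below.

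Id2 was at 16.4, 11.0 and 6.41 CPM in the 8-week mice and 21.3, 0 and 0 CPM in the 72-week mice in strictly gated basophil-like cells, with differences of 4.86 ± 0.31 and 4.66 ± 0.31. Hes1 was listed at 0 UMIs in those cells in the 4 mice and at 49 UMIs in gated cells, which makes it at least 95-fold higher than 3 UMIs over the 4 mice. Itgb7 was at 113, 44.1 and 57.7 CPM in the 8-week mice and 95.3, 63.6 and 47.0 CPM in the 72-week mice, with differences of 3.19 ± 0.22 and 2.08 ± 0.22, and Itga4 differed by 2.75 ± 0.24 and 2.75 ± 0.25. Both integrin chains, Id2, Il2rg (3.05 ± 0.24 and 2.29 ± 0.23), Kit (1.63 ± 0.31 and 2.21 ± 0.37), Slc45a3 (3.30 ± 0.39 and 2.31 ± 0.35), Trbc1 (6.73 ± 0.68 and 4.93 ± 0.64), Snap47, a membrane fusion protein (4.17 ± 0.28 and 3.17 ± 0.28), and Ptms, a small chromatin protein (3.58 ± 0.25 and 3.03 ± 0.26), passed the test against either gate (edgeR, adjusted p at most 0.00016). Kcnc1, Atp8b5, Gpr183, Lpxn, Cx3cr1 and AC153891.1 were the other genes named for the largest increases over the wider gate, with 7.95 ± 1.00, 5.63 ± 0.52, 3.98 ± 0.52, 3.73 ± 0.56, 3.37 ± 0.50 and 3.20 ± 0.40. Here too, genes scarce in basophil-like cells could enter the test through the gated cells and could hardly be called lower. Kcnc1 had 24 UMIs in the gated cells of the 4 mice, so the size of its difference is uncertain. Gata2 differed by 1.85 ± 0.17 and 0.66 ± 0.15 and was called in both.

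Fcer1a, Ms4a2 and the histamine enzyme were lower than in strictly gated basophil-like cells. Fcer1a was at 275 to 2714 CPM there and Ms4a2 at 441 to 1051 CPM, and the differences were -1.36 ± 0.18 and -1.04 ± 0.18 (edgeR, adjusted p = 3.9e-07 and 2.6e-05). Against the wider gate they were 0.22 ± 0.28 and 0.29 ± 0.28 and did not pass. The third chain, Fcer1g, was called higher against both gates, with 1.56 ± 0.12 and 0.43 ± 0.11. Hdc differed by -0.25 ± 0.24 and -1.17 ± 0.18, called against the stricter gate only. Cd63 was called in opposite directions, 0.60 ± 0.13 and -0.47 ± 0.09. For these 4 genes the direction or the call depended on which cells counted as basophil-like. Mpo (-3.08 ± 0.17 and -2.73 ± 0.17), Elane (-3.99 ± 0.15 and -1.73 ± 0.18), Birc5 (-3.03 ± 0.40 and -2.85 ± 0.42), Igsf6, an immunoglobulin superfamily protein (-3.27 ± 0.57 and -3.42 ± 0.56), and Fkbp11 (-4.81 ± 0.76 and -4.32 ± 0.82) were lower against both. Ly6c2, Irf8, Cebpe, Gatm, which makes a creatine precursor, Map4k1, Bex6 and BC035044 were named for the largest decreases from the wider gate, with -3.39 ± 0.36, -3.02 ± 0.55, -3.45 ± 0.57, -3.22 ± 0.61, -3.37 ± 0.70, -4.17 ± 0.82 and -3.39 ± 0.51. Cell cycle genes were lower in 13 of 19 tested against the stricter gate, at a median of -1.0, where the median of all tested genes was -0.0041. In that comparison 9.1% of all tested genes were lower.

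**Figure D5:**
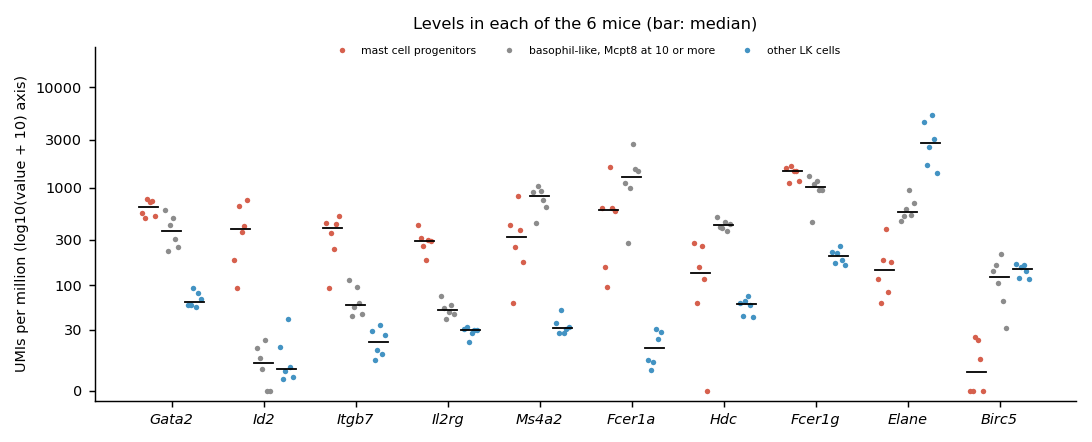
Levels in CPM (vertical axis, log10(value + 10) scale) of 10 genes in gated cells (red), strictly gated basophil-like cells (grey) and other LK cells (blue), 1 point per mouse and a bar at the median. Id2, Itgb7 and Il2rg are highest in the gated cells, Ms4a2, Fcer1a and Hdc have their highest medians in basophil-like cells, and Elane and Birc5 have their lowest medians in gated cells.

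No gene passed the test for a difference between the ages within the gated cells. With 2 mice of each age (mice 1 and 5 against 2 and 4), the quasi-likelihood test of edgeR made 0 calls (0%) among 1450 genes. Before adjustment 35 genes passed 0.05, and DESeq2 made 0 calls, with 2 genes passing before adjustment. Leaving out mouse 1, 2, 4 or 5 gave 6, 15, 24 and 0 calls, each with 1 age down to a lone mouse. All 6 mice gave 0 calls among 945 genes. Cma1, a gene of the rule, was at 1100.4, 188 and 902 CPM in the 8-week mice and 368, 169 and 469 CPM in the 72-week mice, and 37 of the 47 UMIs of mouse 1 came from 1 cell, so its levels are a description. Outside the rule, the genes with the smallest unadjusted p on the lower side were Pdlim1, Atp8b5, Ptpn7, a phosphatase of blood cells, and Car1, an erythroid carbonic anhydrase, with -1.22 ± 0.43, -1.52 ± 0.54, -1.21 ± 0.43 and -1.28 ± 0.46. On the higher side they were Gm9843, Rbm5 and Bbip1, and Rps28, a ribosomal protein, and Taf1d, with 1.37 ± 0.40, 1.48 ± 0.50, 2.47 ± 0.85, 0.64 ± 0.24 and 1.18 ± 0.45. The adjusted p was 0.999 by edgeR for each of these genes. Rpl35, a ribosomal protein gene that the study followed with age, gave -0.10 ± 0.42. Rpl35 was at 5057, 3984 and 2117 CPM in the 8-week mice and 4009.6, 2336 and 2463 CPM in the 72-week mice, highest in mice 1, 2 and 3, which include both ages. Igkc was at 398, 0 and 30.1 CPM in the 8-week mice and 2384, 222 and 0 CPM in the 72-week mice, and in other LK cells at 201, 7.3 and 19.9 CPM in the 8-week mice and 2127, 173 and 85.6 CPM in the 72-week mice. Mouse 2 was highest in both classes.

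The number of genes per cell at equal depth differed between the ages by less than the spread of the mice. At 2000 UMIs the median was 973 genes in gated cells, 926 in strictly gated basophil-like and 947 in other LK cells, where the unthinned medians were 1481, 1941 and 2004. In the gated cells the medians per mouse were 986, 906 and 976 at 8 weeks and 986, 973 and 944 at 72 weeks. The means were 956 ± 43.4 and 968 ± 21.5 genes (SD, n = 3 each, 2-sided exact permutation p = 0.9).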

How the data were processed

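The 6 libraries of LK cells, 1 per mouse, were analysed from the deposited table of raw UMI counts per gene and cell, produced by the authors on GRCm38 (Cell Ranger 3.0.2, then Seurat 3) without cells of few genes or a high mitochondrial share. The lowest cell kept had 1001 genes. The mouse of a cell was read from the number ending its name. Reads of 3′ ends give no full-length structure, and near-identical paralogues of the protease cluster may share reads, so their counts are uncertain. Total UMIs and cells per mouse, given in the report, set the precision, and intervals cover counting error only. Gene positions came from the annotation that the authors deposited, in columns 4 and 5 (other values: 1-based starts and ends). A long-read table counted per run was not used here.

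Cells were gated on raw UMIs, and UMIs were summed per mouse and class. Sums of at least 10 cells were tested by edgeR 4.0.16 in R 4.3.3 (filterByExpr, TMM, quasi-likelihood test, Benjamini-Hochberg adjustment), with the mouse as a block between classes, since both sums of a pair came from the same animal, and without a block between ages. Before the tests, the 9 genes used by any gate were removed from class comparisons, and the age fit kept them, with no test of them given. Shares and genes per cell were compared by exact permutation tests over the mice (scipy 1.17.1). Thinning to 2000 UMIs used seed 42. Scores for doublets came from scanpy 1.11.5. The steps were tested on simulated data. Alternatives were DESeq2 1.42.0, RLE factors, no filter, thinned cells, other gates, no block, and each mouse left out.

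The members and all gene lists were chosen with earlier results of these data known. Genes were named when they belonged to a described list and had a mean of at least 50 CPM, by size of change, when they had the largest called changes in a class comparison, or when they had the 5 smallest unadjusted p in each direction for age. Igkc and Rpl35 were named because the study followed them, and 1 further gene is not reported here. Low genes of some lists (Mitf, Il4, Il6, Osm and Mki67), genes of the splits by Cma1, and Lyn, Syk, Hlf and Flt3 were named outside this rule after their values were seen.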

Additional observations from a re-analysis of the deposited data

How the results depend on the processing

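The share of gated cells among LK cells moved between -1.53 and 0.475 percentage points (72 minus 8 weeks) when each mouse was left out, and only the value without mouse 5 was positive. The share among mast and basophil-like cells moved between -5.48 and 7.76 points, was -4.35 without mouse 4, and turned to -0.611 with all 3 of Gzmb, Cma1 and Scin required and to -3.52 with 10 or more Cpa3 UMIs. The difference in genes per cell lay between -13.3 and 26.7, negative only without mouse 3.

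Age calls numbered 4 without a filter and 0 to 24 with each mouse left out, where the lone mouse of an age was assumed to vary like the others. Calls against basophil-like cells fell from 865 to 576 with DESeq2, 369 with thinned cells and 488 with the stricter gate, and lay between 612 and 768 with each mouse left out. Calls against other LK cells fell from 1662 to 942 with DESeq2 and 801 with thinned cells, and lay between 1016 and 1529, lowest without mouse 4. Thinned sums and smaller gates held fewer UMIs and fewer genes tested. The cause of the DESeq2 difference was not tested. The main class tests had the mouse as a replicate block, and without the block there were 740 and 1544 calls. Unblocked, Junb, Egr1, Fosb, Cd74, H2-Aa, H2-Eb1 and Ctsg were not called.

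Of the 77 genes whose difference from other LK cells is given, none changed sign. Those that lost their call in at least 1 alternative were Adgrg1, Capg, Ccl4, Cd34, Cd74, Ctsd, Ctsg, Egr1, Flii, Fosb, H2-Aa, H2-Eb1, Hdc, Hexa, Junb, Kit, Lamp1, Meis1, Osm, Rab27a and Rhd. Against basophil-like cells, Ms4a2 turned to -0.0861 without a filter, -0.0132 with thinned cells, -1.04 with the stricter gate and -0.568 without mouse 2 (to 0.858 without mouse 5), and Fcer1a to -0.182 without a filter, -1.36 with the stricter gate, -0.191 without the cells of high Prss34 and -0.598 without mouse 2 (to 0.746 without mouse 5). Hdc lay between -0.648 and 0.0211 with each mouse left out, positive without mouse 4, and Cd63 turned to -0.466 with the stricter gate. For age, Rpl35 lay between -0.580 and 0.588 with each mouse left out.

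The fits with all 6 mice, the removal of the 3 cells of high Prss34, and the stricter gate for the share were added after seeing the data. Fits of cells with all 3 genes were not run, because fewer than 2 mice of an age held 10 such cells. The 105 gated cells and their depth limit the detection of low genes.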
